A study of Mus musculus with 6 samples.

Results

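The miR-181 family is a set of microRNAs (miRNAs) cut from 6 hairpins in the mouse genome: Mir181a-1, Mir181a-2, Mir181b-1, Mir181b-2, Mir181c and Mir181d. It was followed here in sensorimotor cortex after spinal cord injury. Its members were taken as every read of 18 to 26 nt found sense and without mismatch in 1 of these hairpins. Each read was given to the 5p or 3p arm by the side of the hairpin's midpoint on which its own midpoint fell. This gave 10 arms among the 1421 arms with at least 1 read. Of the 10, 9 passed the filter on low counts and stood among the 690 arms tested. The arm left out was miR-181d-3p.

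The mice were adult (P90) C57BL/6J males. In the SCI group the cervical cord was cut through completely at level C5/6. In the control group the cord was laid bare and left undamaged, so both groups had the surgical exposure. The cortex was taken 7 days later, with 3 libraries per group, and the labels give the samples as collected individually. The p-values measure the spread between these libraries, and whether a value differed because fewer cells of a type were present or because each cell held less RNA cannot be told apart in bulk tissue.

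A miRNA hairpin is cut into a duplex, of which usually the guide strand stays in an Argonaute protein and the other strand, the passenger, is degraded. The guide recognises its target mRNAs mainly through bases 2 to 8 from its 5′ end, the seed, so the base at which a read begins decides which mRNAs it can pair with. The miR-181 guides are the 5p arms. They are known for tuning T cell receptor signalling in lymphocytes, for their abundance in brain, and for repressing members of the BCL2 family, which regulate cell death, in astrocytes and neurons.

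The mature sequences are printed because the members differ by few bases, and these decide what the reads can tell apart. They are RefSeq's (build GRCm38.p6), 5′ to 3′, with the seed in capitals. The guides, 5p arms with 1 common seed, read:
miR-181a-5p: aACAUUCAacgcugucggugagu
miR-181b-5p: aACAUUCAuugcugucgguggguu
miR-181c-5p: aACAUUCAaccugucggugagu
miR-181d-5p: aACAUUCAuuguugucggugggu
The passengers, 3p arms, read:
miR-181a-1-3p: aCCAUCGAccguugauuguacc
miR-181a-2-3p: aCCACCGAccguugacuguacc
miR-181b-1-3p: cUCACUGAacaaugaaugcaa
miR-181b-2-3p: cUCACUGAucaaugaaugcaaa
miR-181c-3p: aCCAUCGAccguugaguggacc
miR-181d-3p: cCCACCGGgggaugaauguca

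Counting from 1 at the 5′ end, miR-181b-5p and miR-181d-5p differed only by C12U over their 23 shared positions. Between miR-181a-5p and miR-181b-5p the differences were A9U, C10U and A21G, all outside the seed. miR-181c-5p was miR-181a-5p without base 11, a G. None of the other arms had a most abundant read with the seed of the 4 guides. Both copies of miR-181a-5p are identical, as are those of miR-181b-5p, so only the 3p arms separate the copies. miR-181a-1-3p and miR-181a-2-3p differed by U5C and U16C, the former of them inside the seed. miR-181b-1-3p and miR-181b-2-3p differed by A9U and shared their seed, and miR-181a-1-3p shared its seed with miR-181c-3p.

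The 6 hairpins lie in 3 clusters (GENCODE M21, GRCm38). Mir181a-1 (chr1:137966455-137966541, plus strand) and Mir181b-1 (chr1:137966639-137966718, plus strand) stand 97 bases apart in an intron of Gm4258, a transcript of the same strand. Mir181b-1 also lies wholly inside an exon of the lincRNA A430106G13Rik, same strand, whose annotated start is 2 bases past the end of miR-181a-1-3p. Mir181a-2 (chr2:38852735-38852810, plus) and Mir181b-2 (chr2:38853830-38853918, plus) are separated by 1019 bases in an intron of Nr6a1, which runs on the opposite strand. Mir181c (chr8:84178873-84178961, minus) and Mir181d (chr8:84178716-84178787, minus) are 85 bases apart in an intron of Nanos3, same strand. Reads of either arm of Mir181b-1, miR-181b-5p and miR-181b-1-3p, cannot be told apart by sequence from fragments of the lincRNA exon. Of the reads of miR-181b-1-3p, 92.3%, 95.9% and 87.7% started at the same base in control 1 to 3, and 97.9%, 96.6% and 97.2% in SCI 1 to 3. The groups did not overlap, on few reads with other starts, and this difference was not tested.

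The libraries held 10585062 to 24480988 reads, of which 72.9% to 78.9% fell in miRNA arms. No library was a copy of another: chi-square values over all pairs of libraries ran from 148.3 to 1403 per degree of freedom over miRNA arms. On the leading principal component, with 36.3% of the variance, all 3 SCI libraries lay on the other side of 0 from the 3 control libraries. Levels are counts per 1000000 reads in miRNA arms (CPM), scaled by TMM, which puts the median log2 difference over the 690 arms at -0.02. Scaling by total counts moved that median to 0.09, so about 0.1 of any log2 difference in level below depends on the scaling.

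The guides were abundant in every library, and only miR-181b-5p separated the groups by its level, which was lower in SCI by a margin that did not pass the adjusted test. Family reads made up 3.84% ± 0.375 (SD, n = 3) of all miRNA reads in control and 3.66% ± 0.0394 (SD, n = 3) in SCI. The groups overlapped (two-sided exact permutation p = 0.4). Over all 690 arms 0% passed edgeR's quasi-likelihood test at an adjusted p under 0.05, while 97 arms (14.1%) had an unadjusted p under 0.05. SCI levels lay below all control levels in 11% of the 690 arms, and above all of them in 8.99%. Within the family, 4 of the 9 tested arms lay below all control levels and 1 above, and arms of the same libraries are not independent of each other.

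miR-181a-5p, the leading guide and the arm of sixth-highest level in the data, stood at 27471, 33637 and 32770 CPM in control 1 to 3. In SCI 1 to 3 it stood at 29160, 28188 and 27993 CPM. The SCI values lay inside the control range, whose lower end was control 1 (log2 difference -0.14 ± 0.11 SE, edgeR adjusted p = 0.613). miR-181b-5p had 5605, 6040 and 5624 CPM in control and 4204, 4554 and 4276 CPM in SCI. All 3 SCI libraries lay below all controls, with a gap wider than the spread inside either group. The log2 difference was -0.41 ± 0.11 (SE), with an unadjusted p of 0.00369 and an edgeR adjusted p of 0.249. By unadjusted p it was the tenth of the 690 arms, and under total count scaling the difference was -0.29.

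miR-181c-5p, made from the chromosome 8 cluster, had 2184, 1157 and 1565 CPM in control against 1209, 1409 and 1162 CPM in SCI. Control 1 stood far above the other libraries and control 2 below all of them. The log2 difference of -0.38 ± 0.21 (SE; edgeR adjusted p = 0.466) shrank to -0.12 without control 1. miR-181d-5p, its neighbour, had 1011, 807 and 832 CPM in control and 781, 878 and 845 CPM in SCI. Those ranges overlapped, and the sign of the difference (-0.08 ± 0.13 SE, adjusted p = 0.801 by edgeR) turned to 0.04 under total count scaling.

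As shares of the family's 5p reads, miR-181a-5p made up 75.7% to 80.8% in control and 80.5% to 82.5% in SCI. For miR-181b-5p the share was 14.6% ± 0.836 (SD, n = 3) in control and 12.5% ± 0.555 (SD, n = 3) in SCI, with no overlap. These shares do not depend on the scaling of the libraries. miR-181c-5p and miR-181d-5p took 2.78% to 6.02% and 1.94% to 2.79% of the 5p reads.

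**Figure D1:**
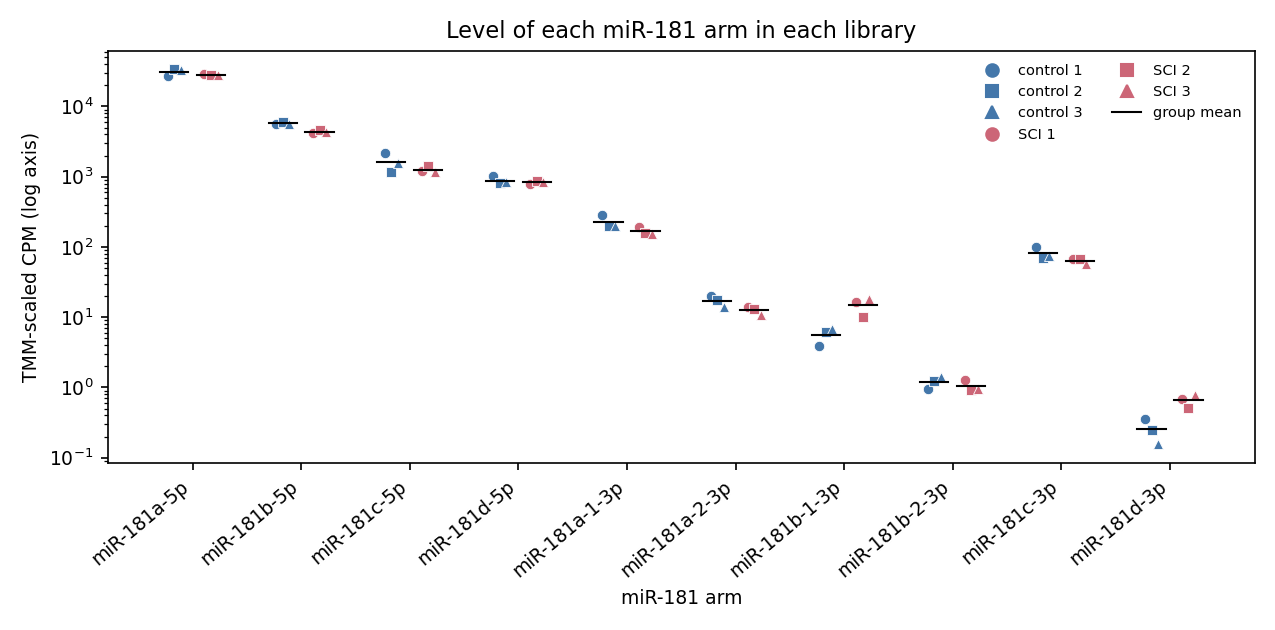
Level of each of the 10 miR-181 arms (TMM-scaled CPM, log axis) in the 3 control and 3 SCI libraries, 1 point per library, with the group means as black bars. The guides lie between 781 and 33637 CPM, and miR-181b-5p (lower) and miR-181b-1-3p (higher) show SCI libraries clear of the controls.

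Among the passengers, miR-181b-1-3p stood higher in all 3 SCI libraries, while the 3p arm made from the hairpin next to it stood lower. miR-181b-1-3p had 65, 49 and 130 reads in control 1 to 3, or 3.91, 6.10 and 6.81 CPM. It had 193, 176 and 286 reads in SCI 1 to 3, or 16.6, 9.96 and 18.3 CPM. Every SCI library lay above every control, with SCI 2 the lowest of the SCI group. The level was 2.67-fold higher (log2 difference 1.42 ± 0.29 SE), with an unadjusted p of 0.000880, the third smallest of the 690 arms. The edgeR adjusted p was 0.156, so the arm did not pass. It passed with DESeq2 (adjusted p = 0.000594), where 12 of 690 arms (1.74%) did, and with edgeR without SCI 2 (adjusted p = 0.0301). Leaving out each library in turn gave log2 differences of 1.20 to 1.64.

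miR-181a-1-3p, the most abundant passenger, had 289, 200 and 199 CPM in control and 192, 160 and 154 CPM in SCI. All SCI values lay under the controls, though SCI 1 came close to control 2 and control 3. The log2 difference was -0.44 ± 0.19 (SE; edgeR unadjusted p = 0.0400, adjusted p = 0.304), and -0.25 without control 1. miR-181a-2-3p, from the chromosome 2 cluster, had 19.8, 17.6 and 14.2 CPM in control and 13.8, 13.1 and 10.8 CPM in SCI. Here too the groups did not overlap (log2 difference -0.45 ± 0.20 SE, edgeR adjusted p = 0.340), by a margin far smaller than the spread within the groups. miR-181c-3p had 99.7, 69.1 and 73.5 CPM in control and 66.7, 67.1 and 57.9 CPM in SCI, again without overlap. Its log2 difference was -0.34 ± 0.18 (SE; edgeR adjusted p = 0.463), and -0.16 without control 1. miR-181b-2-3p was near 1 CPM throughout, at 10 to 27 reads per control library and 15 or 16 per SCI library (log2 difference -0.22 ± 0.31 SE, edgeR adjusted p = 0.778). miR-181d-3p had 6, 2 and 3 reads in control and 8, 9 and 12 in SCI, too few to pass the filter, so its level was not tested and no fold difference in level is given.

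Passenger reads differ in sequence between the copies, though those of miR-181b-1-3p cannot be told apart from fragments of the lincRNA exon. Of the miR-181a passengers, 91.9% to 93.6% came from Mir181a-1 in every library, with no separation of the groups. Of the miR-181b passengers, miR-181b-1-3p made up 80.2%, 83.1% and 82.8% in control and 92.8%, 91.7% and 95.02% in SCI. Summed by cluster, chromosome 1 gave 70.2% ± 0.533 of the 3p reads in control and 70.1% ± 2.18 in SCI (SD, n = 3 each), and chromosome 8 gave 24.2% ± 0.714 and 24.7% ± 1.90. The clusters' shares thus overlapped between the groups. Inside the chromosome 1 cluster miR-181b-1-3p took a larger share of the 3p reads in SCI and miR-181a-1-3p a smaller one, both without overlap. On chromosome 8 miR-181d-3p also took a larger share without overlap, at a mean of 0.0750% in control and 0.252% in SCI, on very few reads.

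The log2 ratio of miR-181b-1-3p to miR-181a-1-3p within a library was -6.20, -5.02 and -4.86 in control. It was -3.53, -4.00 and -3.07 in SCI. All SCI ratios lay above all control ratios, with a difference of 1.83. The two-sided exact permutation p was 0.1, the smallest that 3 libraries against 3 allow, and 0.15 after Benjamini-Hochberg adjustment over the 3 clusters. In the chromosome 2 cluster miR-181b-2-3p over miR-181a-2-3p gave -4.32, -3.75 and -3.30 in control and -3.37, -3.81 and -3.44 in SCI. These overlapped (difference 0.25, exact permutation p = 0.7). On chromosome 8, miR-181d-3p over miR-181c-3p gave -7.995, -7.80 and -8.65 in control and -6.51, -6.96 and -6.18 in SCI (difference 1.60, exact permutation p = 0.1, adjusted 0.15). This last ratio rests on 2 to 12 reads of miR-181d-3p per library. Whether the difference on chromosome 1 is larger than that on chromosome 2 was not tested.

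Set against its own guide, the miR-181b passenger showed the same separation. Control libraries had 0.869, 1.22 and 1.46 reads of miR-181b 3p per 1000 reads of 5p, and SCI libraries had 4.26, 2.39 and 4.51. Both numerator and denominator contributed, the 3p reads being higher and the 5p reads lower in SCI. The 3p over 5p ratio was tested with limma in 243 hairpins or groups of hairpins that share an arm, with reads summed over each group. Of these 0% passed and 26 (10.7%) had an unadjusted p under 0.05. In 7.82% of the 243 the SCI libraries lay above all controls. For miR-181b the log2 difference in the ratio was 1.62 ± 0.31 (SE), the second smallest p of the 243 (limma unadjusted p = 0.00136, adjusted p = 0.140). For miR-181a it was -0.30 ± 0.26 (SE; limma adjusted p = 0.666), and -0.03 without control 1, and for miR-181c 0.01 ± 0.18 (SE; limma adjusted p = 0.974). The miR-181c passenger was the most abundant relative to its guide, at 45.6 to 59.7 reads per 1000 guide reads.

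**Figure D2:**
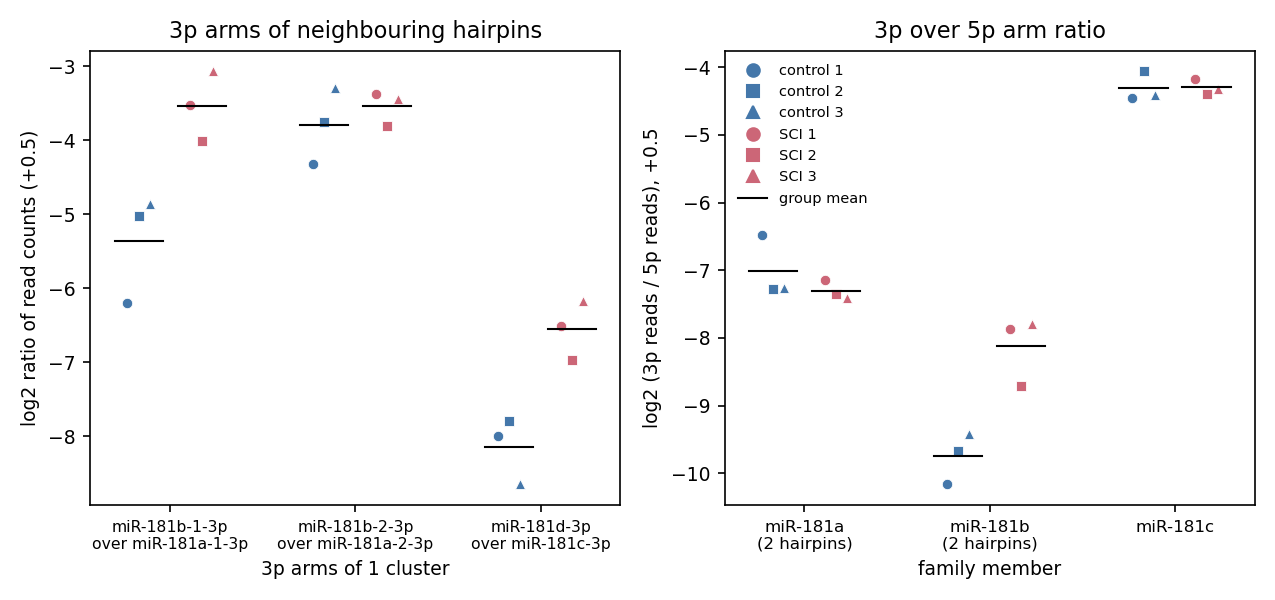
Left, log2 ratio of read counts (0.5 added) between the 3p arms of neighbouring hairpins in each cluster, and right, log2 ratio of 3p to 5p reads per family member, 1 point per library with group means as black bars. miR-181b-1-3p over miR-181a-1-3p lies at -6.20 to -4.86 in control and -4.00 to -3.07 in SCI, while the chromosome 2 pair overlaps.

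The guide reads of the family also differed in where they began. In SCI, a smaller share of the reads of miR-181a-5p, miR-181b-5p and miR-181c-5p began downstream of the usual 5′ end. The main test set reads at that end against all other starts, earlier and later together. All 3 were among the 39 of 421 arms (9.26%) that passed it. None of the 3 passed it when control 1, control 2 or any 1 of the SCI libraries was left out. The 3 were also among the 76 of 352 arms (21.6%) that passed against later starts only, a comparison chosen after the data were seen. The libraries were made with adapters that end in degenerate bases. The position at which a read starts depends on how these were trimmed. That step is not given in the sources used here, and its part in these values was not tested. Reads that start later carry another seed. To show how, the main read and the most abundant later-starting read among those that passed are printed as deposited, 5′ to 3′, with bases 2 to 8 in capitals:
miR-181a-5p, main read: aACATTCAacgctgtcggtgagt
miR-181a-5p, starting 1 base later: aCATTCAAcgctgtcggtga
miR-181b-5p, main read: aACATTCAttgctgtcggtgg
miR-181b-5p, starting 1 base later: aCATTCATtgctgtcggtgg
miR-181c-5p, main read: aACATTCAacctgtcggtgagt
miR-181c-5p, starting 2 bases later: cATTCAACctgtcggtgagt
The later reads of miR-181a-5p and miR-181b-5p no longer share a seed with each other, since base 8 now falls on the position where the 2 guides differ.

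Later-starting reads made up 1.78%, 1.69% and 1.44% of miR-181a-5p in control 1 to 3, and 0.974%, 0.953% and 0.885% in SCI 1 to 3. The gap between the groups was wider than the range inside either. For miR-181b-5p the shares were 2.31%, 2.10% and 1.88% in control and 1.36%, 1.30% and 1.21% in SCI. Those for miR-181c-5p were 1.79%, 1.66% and 1.497% in control and 1.18%, 1.08% and 1.16% in SCI. Again no library of one group reached the other group's range. For miR-181d-5p they were 1.25%, 1.64% and 1.27% in control and 1.08%, 0.961% and 0.865% in SCI, without overlap but with SCI 1 close to the controls. The corresponding ratio separated in this direction in 40.3% of 352 arms. Wilson intervals (95%) on a single library's share were at most 0.0972 percentage points wide for miR-181a-5p and 0.620 for miR-181d-5p. They cover counting error only, since the reads carry no molecular identifiers.

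**Figure D3:**
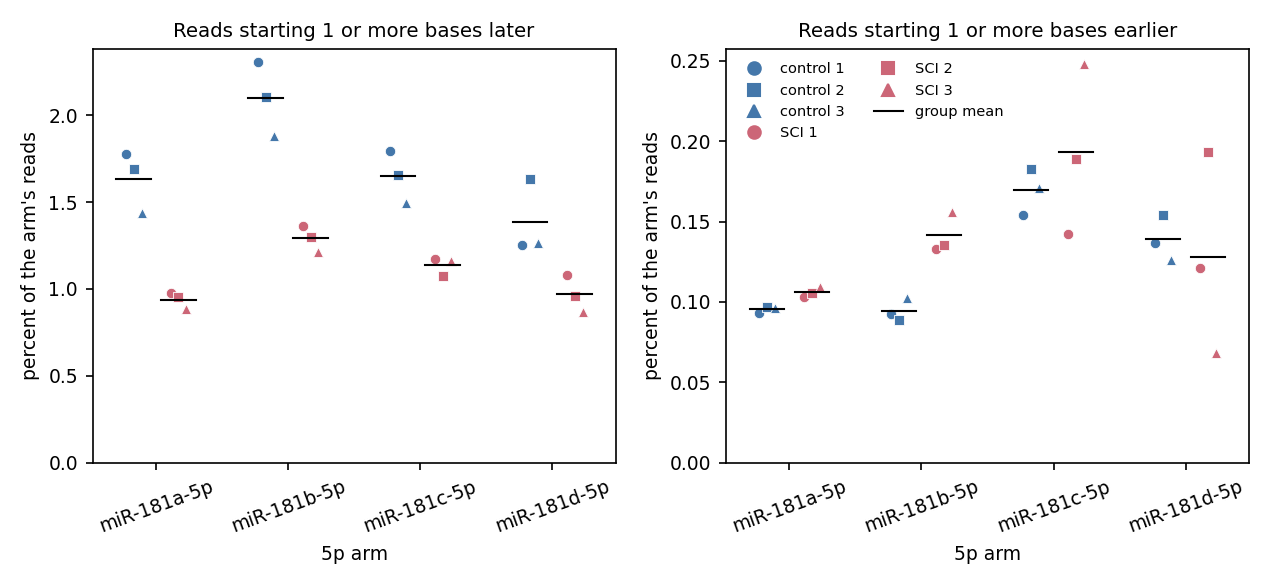
Percent of each guide's reads that began 1 or more bases after (left) or before (right) the main 5′ end, 1 point per library, with group means as black bars. On the left every SCI library lies below every control library for all 4 guides, for example 0.885% to 0.974% against 1.44% to 1.78% for miR-181a-5p.

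The test compared, per arm, the log2 ratio of reads at the main 5′ end to all other reads of the arm (limma, 421 arms). It rose in SCI by 0.74 ± 0.11 (SE) for miR-181a-5p (limma adjusted p = 0.0216). For miR-181b-5p it rose by 0.62 ± 0.11 (SE; limma adjusted p = 0.0242), and for miR-181c-5p by 0.45 ± 0.10 (SE; limma adjusted p = 0.0481). miR-181d-5p had a difference of 0.48 ± 0.16 (SE) and did not pass (limma adjusted p = 0.131). Of the 421 arms 39 (9.26%) passed, 37 of them (8.79% of the 421) in the same direction as the guides, and the median over all arms was 0.13. The shift was thus not limited to the family. These calls rest on every library but control 3: without control 1, control 2, SCI 2 or SCI 3 no arm passed, and without SCI 1, 15 arms and no guide of the family did. The sizes moved less, staying between 0.68 and 0.82 for miR-181a-5p, 0.55 and 0.69 for miR-181b-5p, and 0.40 and 0.52 for miR-181c-5p when each library was left out in turn.

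Among the passengers the difference was 0.24 ± 0.22 (SE) for miR-181a-1-3p, 0.88 ± 0.62 (SE) for miR-181a-2-3p and -0.28 ± 0.13 (SE) for miR-181c-3p, none of which passed (limma adjusted p = 0.624, 0.468 and 0.244). The remaining passengers had too few other starts to be tested.

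Split by direction, a comparison chosen after the data were seen, the shift lay in the later starts. Against reads starting later only, 76 of 352 arms (21.6%) passed, 75 of them (21.3% of the 352) with fewer later starts in SCI, and the median over the 352 was 0.24. The difference was 0.81 ± 0.12 (SE) for miR-181a-5p, 0.71 ± 0.12 for miR-181b-5p and 0.54 ± 0.12 for miR-181c-5p (limma adjusted p = 0.00891, 0.0110 and 0.0222), and 0.52 ± 0.16 for miR-181d-5p (limma adjusted p = 0.0626). Against earlier starts, 0% of 262 arms passed and 34 (13%) had an unadjusted p under 0.05. Reads that began earlier went the other way, without overlap, in miR-181b-5p, miR-181a-5p and miR-181c-3p, while the family's other tested arms overlapped. For miR-181b-5p they made up 0.0922%, 0.0886% and 0.103% in control and 0.133%, 0.135% and 0.156% in SCI. For miR-181a-5p the shares were 0.0932%, 0.0966% and 0.0961% in control and 0.103%, 0.106% and 0.109% in SCI. For miR-181c-3p they were 7.30%, 6.67% and 8.05% in control and 9.55%, 8.68% and 8.31% in SCI. In 13.7% of the 262 arms the groups separated in that direction. For miR-181b-5p the separation had the second smallest unadjusted p of the 262 arms (log2 difference -0.57 ± 0.12 SE, limma unadjusted p = 0.00303, adjusted p = 0.188). The reads at the main 5′ end of miR-181a-5p remained 98.1% to 99.0% of the arm in every library, so the seed-shifted reads of this guide were a small fraction throughout.

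**Figure D4:**
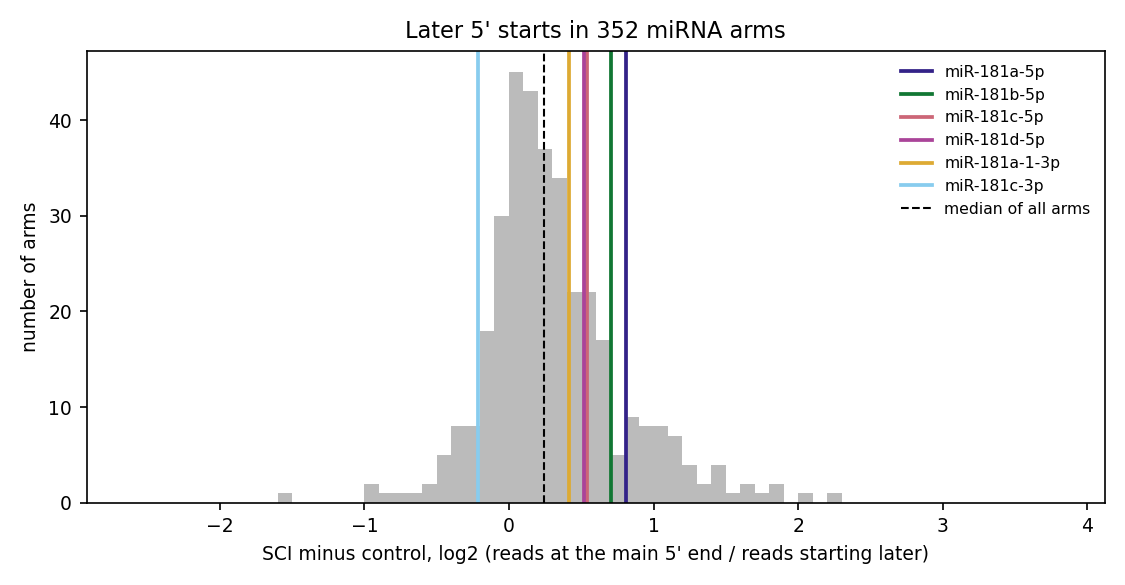
Histogram over 352 miRNA arms of the SCI minus control difference in log2 (reads at the main 5′ end over reads starting later), with the 6 tested miR-181 arms as coloured lines and the median of all arms (0.24) dashed. All 4 guides lie right of that median, at 0.52 to 0.81, and miR-181c-3p lies left of 0.

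Single reads were also tested. Later-starting guide reads are part of the 5′ start ratio above, so their result is not independent of it. Each distinct read was tested with edgeR over 8373 reads, of which 186 (2.22%) passed, 27 (0.322%) higher and 159 (1.9%) lower in SCI. Of the family's 181 tested reads 15 passed. The 13 that fell were all later-starting guide reads: 6 of miR-181a-5p, 5 of miR-181b-5p and 2 of miR-181c-5p. Later starts made up most of the calls over all arms, the family included: of all 186 reads that passed, 161 started later and 23 at the main base. How many of the tested reads start later was not counted, in the family or over all arms. These counts therefore do not show whether later starts passed more often than other reads. The 2 family reads that rose were both of miR-181b-1-3p. The number of the 15 that still passed when 1 library was left out ran from 14 (without control 1) to 0 (without SCI 3), with 6 without SCI 1, 8 without SCI 2 and 8 without control 2. All 15 kept their sign each time. Under total count scaling 10 of them passed.

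The 20-nt read of miR-181a-5p that starts 1 base later had 73.9, 76.2 and 62.1 CPM in control and 37.8, 30.0 and 32.7 CPM in SCI. Its level fell by 1.08 ± 0.20 (SE) on the log2 scale (edgeR adjusted p = 0.00842). The main 23-nt read of the same arm had 11116, 15026 and 15439 CPM in control and 13266, 13338 and 12977 CPM in SCI, which overlap (log2 difference -0.07 ± 0.15 SE). The read starting 2 bases later (21 nt) fell by 1.44 ± 0.23 (SE) on the log2 scale (edgeR adjusted p = 0.00242). For miR-181b-5p the 20-nt read starting 1 base later had 35.8, 29.5 and 25.1 CPM in control and 15.1, 10.5 and 10.8 CPM in SCI. It fell by 1.32 ± 0.24 (SE) on the log2 scale (edgeR adjusted p = 0.00596). In miR-181c-5p, the 20-nt read starting 2 bases later had 5.29, 5.48 and 4.04 CPM in control against 1.81, 2.60 and 1.54 CPM in SCI. It fell by 1.29 ± 0.30 (SE) on the log2 scale (edgeR adjusted p = 0.0287). In each of these later-starting reads no SCI library reached the lowest control, as held for 12.1% of all reads tested.

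The 2 reads of miR-181b-1-3p that rose start at the usual base and end 1 or 2 bases short of RefSeq's sequence. The 20-nt read, 62.6% of the arm, had 1.86, 4.73 and 3.83 CPM in control and 11.4, 5.32 and 12.4 CPM in SCI, with SCI 2 close to control 2. It rose by 1.52 ± 0.36 (SE) on the log2 scale (edgeR adjusted p = 0.0312). The 19-nt read rose by 1.46 ± 0.33 (SE; edgeR adjusted p = 0.0263). The 21-nt read, identical to RefSeq's sequence, had a difference of 1.33 ± 0.40 (SE) and did not pass (edgeR adjusted p = 0.109). The passing reads come from the same libraries as the arm's total and are not independent of it.

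The lengths of the guide reads differed between members and between single libraries. Shares of single lengths were not tested. They lay higher in SCI without overlap at 19 nt in miR-181a-5p and miR-181b-5p and at 22 nt in miR-181c-5p. Lower without overlap were 20 nt in miR-181a-5p and 23 nt in miR-181c-5p. At all other lengths the guides' groups overlapped. Mean read length passed in 0% of 443 arms (limma; 28 or 6.32% had an unadjusted p under 0.05). miR-181b-5p, 24 nt long in RefSeq, was read most often at 21 nt (29.8% to 39.9% per library), with a second peak at 23 nt. Its 24-nt share was 14.6% to 15.3% in control, and 7.65%, 16.4% and 12.7% in SCI 1 to 3, so SCI 1 stood apart. The mean length differed by -0.22 ± 0.12 nt (SE; limma adjusted p = 0.674). The level of its longer reads was the further from control: -0.62 ± 0.18 (SE) for the 23-nt read and -0.69 ± 0.23 for the 24-nt read, against -0.25 ± 0.16 for the 21-nt read, none passing (edgeR adjusted p = 0.0929, 0.186 and 0.554).

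For miR-181c-5p control 1 stood apart from the other 5 libraries. Its 23-nt reads made up 45.1% of the arm there and 23.7% to 28.4% elsewhere, while 22-nt reads made up 23.4% against 43.2% to 45.2%. The 23-nt read had 980 CPM in control 1, 298 and 441 in control 2 and control 3, and 283, 362 and 289 in SCI. The 22-nt read, RefSeq's sequence, had 499, 503 and 672 CPM in control and 543, 630 and 510 CPM in SCI (log2 difference 0.01 ± 0.18 SE). The high level of the arm in control 1 was thus found in its longer reads, and on the most abundant read alone the groups' levels differed by 0.02 on the log2 scale.

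**Figure D5:**
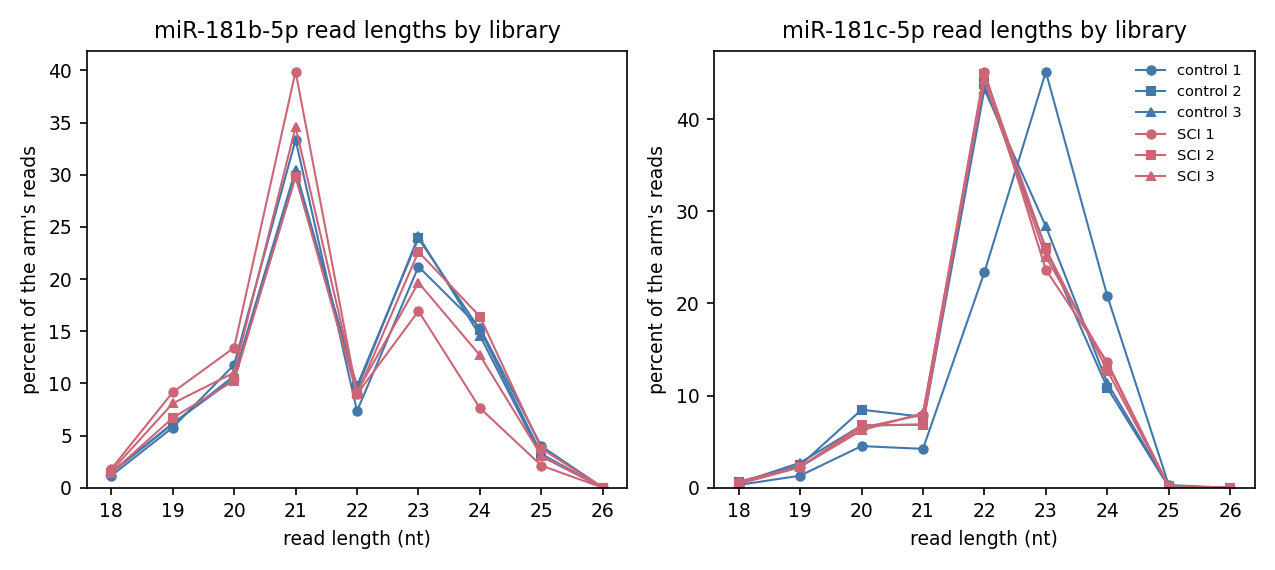
Percent of reads by length (nt) for miR-181b-5p (left) and miR-181c-5p (right), 1 line per library. SCI 1 has the fewest 24-nt reads of miR-181b-5p (7.65%), and control 1 peaks at 23 nt for miR-181c-5p (45.1%), where the other libraries peak at 22 nt.

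Reads with 1 to 3 bases added to the 3′ end that do not match the hairpin were kept apart. They made up 14.1% to 17.3% of miR-181b-5p reads and 14.7% to 17.8% of miR-181d-5p reads, but 5.31% to 7.44% of miR-181a-5p and 3.28% to 4.47% of miR-181c-5p. No arm of 504 passed the test of added bases (limma; 35 or 6.94% had an unadjusted p under 0.05). In the family the smallest p was that of miR-181c-3p, with tailed shares of 19.3%, 16.2% and 17.9% in control and 22.4%, 20.99% and 23.3% in SCI. The groups did not overlap (log2 difference 0.40 ± 0.13 SE, limma unadjusted p = 0.0168, adjusted p = 0.528), where 15.1% of the 504 arms lay higher without overlap. The difference was in added adenines, at 9.20%, 9.06% and 9.37% in control and 14.7%, 12.8% and 14.3% in SCI. Added uridines overlapped, at 6.34% to 9.05% and 6.21% to 8.07%. This split by base was looked at after the test and was not itself tested.

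Since miR-181d-5p differs from miR-181b-5p by 1 base, its reads were set beside single-base changes of miR-181b-5p that match no hairpin. The most abundant miR-181b-5p read was seen 143932 times, and the same read with C12T, which is miR-181d-5p, 23759 times. The other changes at that position, C12A and C12G, were seen 66 and 39 times. Over the 59 other single changes at positions 1 to 20 the median was 16 reads and the highest 96.

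A list of 20 other miRNAs known to target BCL2-family mRNAs, set beside the family, gave no common direction: 10 had a log2 difference above 0 and 10 below, the median was 0.01, and none of the 20 passed (0% of 690 arms did). The family's own 9 tested arms had 8 below 0, and 1 above, where 51.9% of all 690 arms lay below and 48.1% above. Under total count scaling 7 of the 9 lay below 0 and 2 above. The arms were measured in the same libraries and are not independent of each other. miR-29a-3p, which targets Mcl1, had the smallest p of the list at 93415 CPM ± 19620 in control and 75181 ± 6586 in SCI (SD, n = 3 each; log2 difference -0.31 ± 0.15 SE, edgeR adjusted p = 0.388). let-7a-5p followed at -0.23 ± 0.15 (SE) and miR-125b-5p at 0.22 ± 0.15.

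Markers of the cells a cortex sample can hold were read beside these values, and their part in the results was not tested. None of the lists' members was at 0 in all libraries, and none passed. Of 6 neuronal miRNAs 5 lay below 0 and 1, miR-124-3p, above (0.34 ± 0.18 SE), and their summed level was 116429 to 133309 CPM in control and 111605 to 119792 CPM in SCI. Of 7 leukocyte miRNAs 5 lay below 0, among them miR-150-5p (-0.28 ± 0.13 SE, edgeR adjusted p = 0.382), whose groups did not overlap. The other 2 lay above 0, among them miR-342-3p (0.79 ± 0.24 SE, edgeR adjusted p = 0.256), whose groups overlapped. The summed leukocyte level was 3288 to 4268 CPM in control and 3711 to 5304 CPM in SCI. All 4 erythroid miRNAs lay above 0, with summed levels of 977 to 1188 CPM and 710 to 1764 CPM. Of 6 endothelial and mural miRNAs 4 lay below 0, led by miR-143-3p (-0.51 ± 0.11 SE, edgeR adjusted p = 0.156), with sums of 17397 to 22909 CPM and 15157 to 19064 CPM. Of 4 oligodendrocyte miRNAs 3 lay below 0, with sums of 6882 to 9324 CPM and 6171 to 6906 CPM. For choroid plexus and ependyma 5 of 8 lay below 0, with sums of 1146 to 1708 CPM and 923 to 1697 CPM, and for muscle 1 of 3, with sums of 581 to 655 CPM and 545 to 614 CPM.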

How the data were processed

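The authors deposited for each library a list of distinct reads of 17 to 34 nt with raw counts, per the file headers. Per the labels' protocols, RNA was extracted with the mirVana kit and HD adapters were used. The submitters' processing notes name the build GRCm38. The trimmer and read filters are not given in the sources used here. Reads of 18 to 26 nt were matched without mismatch to 1174 GENCODE M21 hairpins. Arms sharing their most abundant read or 50% of reads were merged, and reads still in several arms (0.1% to 0.153%) were left out. Reads with 1 to 3 added 3′ bases were counted apart.

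Arms (filterByExpr, minimum count 10) and single reads (total of 10) were tested with edgeR 4.0.16, TMM scaling, in R 4.3.3. Ratios, 5′ starts, lengths and added bases were tested with limma 3.58.1 on log2 ratios (0.5 added) of arms with a mean of 10 counts in both classes, or on mean lengths (50 counts per library). Benjamini-Hochberg adjustment ran over all features of a test, and adjusted p under 0.05 counted as passed. Copy ratios and family shares had two-sided exact permutation tests. Alternatives included DESeq2 1.42.0 and limma-voom. Fits were tested on simulated data. Python 3.11.15, pandas 2.3.3, numpy 2.4.6, scipy 1.17.1 and matplotlib 3.10.9 were used.

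Groups came from the labels. The named miRNAs are all arms of the 6 hairpins, the 3 most abundant reads of each arm and every family read that passed, up to 3 members per list by unadjusted p, and the 5 arms most like each of 3 members. The members and lists were chosen with earlier results of these data known.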

Additional observations from a re-analysis of the deposited data

How the results depend on the processing

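Depth limits the passengers most: Mir181b-2 and Mir181d gave 2 to 27 3p reads per library, and 3 libraries per group limit every test. The count of 0 arms passing with edgeR became 12 with DESeq2 and 30 without a filter on low counts, stayed 0 with limma-voom, and ran from 0 to 7 when 1 library was left out. Arms at an unadjusted p under 0.05 numbered 97 with edgeR. miR-181b-1-3p passed with DESeq2, without the filter (adjusted p = 6.70e-06) and without SCI 2, and its adjusted p was at most 0.512. Single reads passing numbered 20 to 217 without 1 library, and arms passing for 5′ starts 0 to 45, against 76 for later and 0 for earlier starts alone. Replicate numbers did not pair the libraries: deviations of same-numbered libraries correlated at 0.20, -0.06 and -0.07, and 2 libraries were closest to their own number. With the replicate number as a block, 0 arms passed (103 at an unadjusted p under 0.05), 246 single reads and 31 arms for 5′ starts. miR-181a-5p (adjusted p = 0.0315) and miR-181b-5p (0.0404) passed there, as did miR-181a-2-3p (0.0328), and miR-181c-5p did not (0.113). Signs turned for differences that had not passed. For levels these were miR-181c-5p on its most abundant read (0.022) and miR-181d-5p, at 0.037 under total count scaling and -0.15 to 0.022 without 1 library. Without 1 library the miR-181c 3p over 5p log2 ratio ran from -0.061 to 0.13, and that of miR-181b-2-3p over miR-181a-2-3p from -0.016 to 0.49. Mean lengths then ran from -0.019 to 0.038 nt for miR-181a-5p, -0.23 to 0.050 for miR-181c-5p, -0.094 to 0.039 for miR-181d-5p, -0.069 to 0.022 for miR-181a-1-3p and -0.0056 to 0.070 for miR-181a-2-3p. Added bases ran from -0.086 to 0.16 for miR-181a-1-3p and -0.15 to 0.11 for miR-181a-2-3p, and turned to -0.14 for miR-181b-1-3p with 5 reads added in place of 0.5. The cause was not tested for any of these.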

Other observations

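The level patterns closest to 3 members over the 6 libraries were found by Pearson's r of log2 CPM, a description over libraries that share depth and scaling. The 6 libraries include both groups, so arms with a like difference between the groups score high. Whether the matched arms share a cell type was not tested. For miR-181b-5p the closest were miR-143-3p (r = 0.99), an abundant miRNA of smooth muscle and mural cells, then miR-369-5p, let-7i-5p, miR-28a-3p and miR-129-5p (r = 0.95 to 0.99). miR-143-3p stood at 4370 CPM in control and 3074 CPM in SCI. For miR-181b-1-3p they were miR-3072-3p (r = 0.97), miR-7055-5p, miR-296-5p, miR-377-5p and miR-410-3p, with miR-3072-3p at 17.7 CPM in control and 36.0 CPM in SCI. For miR-181a-5p they were miR-185-3p (r = 0.97), miR-219a-2-3p, miR-1930-5p, miR-467d-5p and miR-134-3p.

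Outside the counted lengths the family had few exact reads. Over the 6 libraries 3307150 reads of 18 to 26 nt matched its hairpins, against 4562 of 17 nt and 108 of 27 to 34 nt.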
